A study of Mus musculus with 11 samples.

Results

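The protein-coding Hox genes of the mouse were followed in 11 RNA-seq libraries of cells with and without Atxn7l3. They were taken by name alone, as every protein-coding entry called Hox with a cluster letter from a to d and a paralogue number, and this rule uses no measured value. All 39 were listed among 31518 genes in the embryonic stem cell data and 38 among 29450 genes in the fibroblast data, where Hoxb1 was not listed. In mm10 the 11 HoxA genes lie on the minus strand of chromosome 6. The 10 HoxB genes lie on the plus strand of chromosome 11 from 96194316 to 96368256, the 9 HoxC genes on the plus strand of chromosome 15 from 102921103 to 103036852, and the 9 HoxD genes on the plus strand of chromosome 2 from 74668310 to 74765142.

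Hox genes encode homeodomain transcription factors that give cells of the embryo their position along the head-to-tail axis and along the limb. The order of the genes within a cluster follows the order of their expression domains, so that genes with low paralogue numbers are used from the hindbrain backwards and genes with high numbers in the lumbosacral trunk, the tail, the genital tubercle and the distal limb. The clusters are held silent by Polycomb complexes in pluripotent cells, and fibroblasts keep in culture a Hox pattern of the body site they came from.

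The cells were mouse embryonic stem cells (mESCs) and mouse embryonic fibroblasts (MEFs) of mixed DBA/2 x C57BL/6 background, either WT (Atxn7l3+/+) or Atxn7l3-/-. There were 2 WT and 3 Atxn7l3-/- mESC libraries and 3 WT and 3 Atxn7l3-/- MEF libraries. ATXN7L3 is the adaptor that activates the deubiquitylation module of the SAGA coactivator, which removes ubiquitin from histone H2B, and the knockout was constitutive, present in every cell of the embryo. Each mESC line was derived from its own blastocyst, passed over feeder cells and then kept without them in serum with LIF and inhibitors of MEK and GSK3. Each MEF culture was grown from 1 embryo at mid-gestation after the head and the gut had been taken off, so trunk and limb levels were mixed in it. In such bulk RNA, fewer cells of a body level and less Hox RNA per cell cannot be told apart.

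Library totals ran from 34515342 to 49602605 counts, and levels are given below as CPM (counts per 1000000 counts of the library after scaling the 11 libraries together), or as CPM per kb of median transcript length where genes are compared with each other. A count of 3, the limit that a count of 0 allows, corresponded to 0.0571 to 0.0935 CPM, and this covers counting error only. Atxn7l3 itself stood at 196.4 and 202.4 CPM in WT mESCs against 0.831 to 3.34 CPM in Atxn7l3-/- mESCs, but at 86.4 to 116.7 CPM in WT MEFs against 55.4 to 73.2 CPM in the MEF libraries labelled Atxn7l3-/- (log2 fold change -0.74, edgeR adjusted p = 0.0715), so the latter are named here by their label. This is a comparison of RNA alone, and ATXN7L3 protein was not analysed here. All 4 mesothelial markers checked were higher in these labelled MEFs, with summed levels of 3985 to 5812 CPM against 10.1 to 32.9 CPM in WT MEFs, while 0 of 8 fibroblast markers passed in edgeR. Over all genes tested in MEFs, edgeR called 5.01% higher and 4.39% lower. Of the other markers, Sox10 and Map2 were the neural ones called lower (summed neural level 102.9 to 252 CPM in WT, 9.27 to 46.6 CPM in labelled Atxn7l3-/- MEFs) and Krt18 the epithelial one called higher. The pluripotency markers summed to 3255 to 4083 CPM in mESCs and to 49.4 CPM or less in MEFs. The Y-linked gene Ddx3y was at 0.244 CPM in WT MEF 3 and 66.2 to 269.2 CPM in the other 5 MEF libraries, and at 2.95 and 0.791 CPM in Atxn7l3-/- mESC 1 and 2 against 80.3 to 191.6 CPM in the other 3 mESC libraries. The part of these cell markers and of the sex of the embryos in the Hox values was not tested, and results that rest on such a library are given with and without it.

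WT MEFs and WT mESCs were compared first, to describe the Hox pattern of each cell type before the genotypes were compared. Of 38 Hox genes tested, 29 were higher in WT MEFs and 1 was lower by edgeR's quasi-likelihood test, where 26.8% of all 19312 genes tested were higher and 27.1% lower. All 15 genes of the central paralogues 4 to 8 were higher in MEFs, with 5 of 7 anterior genes (paralogues 1 to 3) and 9 of 16 posterior genes (paralogues 9 to 13). The median log2 difference was 7.13 for anterior, 5.70 for central and 3.13 for posterior genes, against -0.01 over all genes tested. The summed Hox level was 23.5 and 15.9 CPM per kb in the WT mESCs and 217.6, 305.5 and 406.8 CPM per kb in the WT MEFs, so the cell types did not overlap. Without WT MEF 3, Atxn7l3-/- mESC 1 or Atxn7l3-/- mESC 2, the libraries with little Ddx3y, edgeR called 28 Hox genes each. Without WT mESC 2 the number of Hox genes called was 17 in place of 30.

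**Figure D1:**
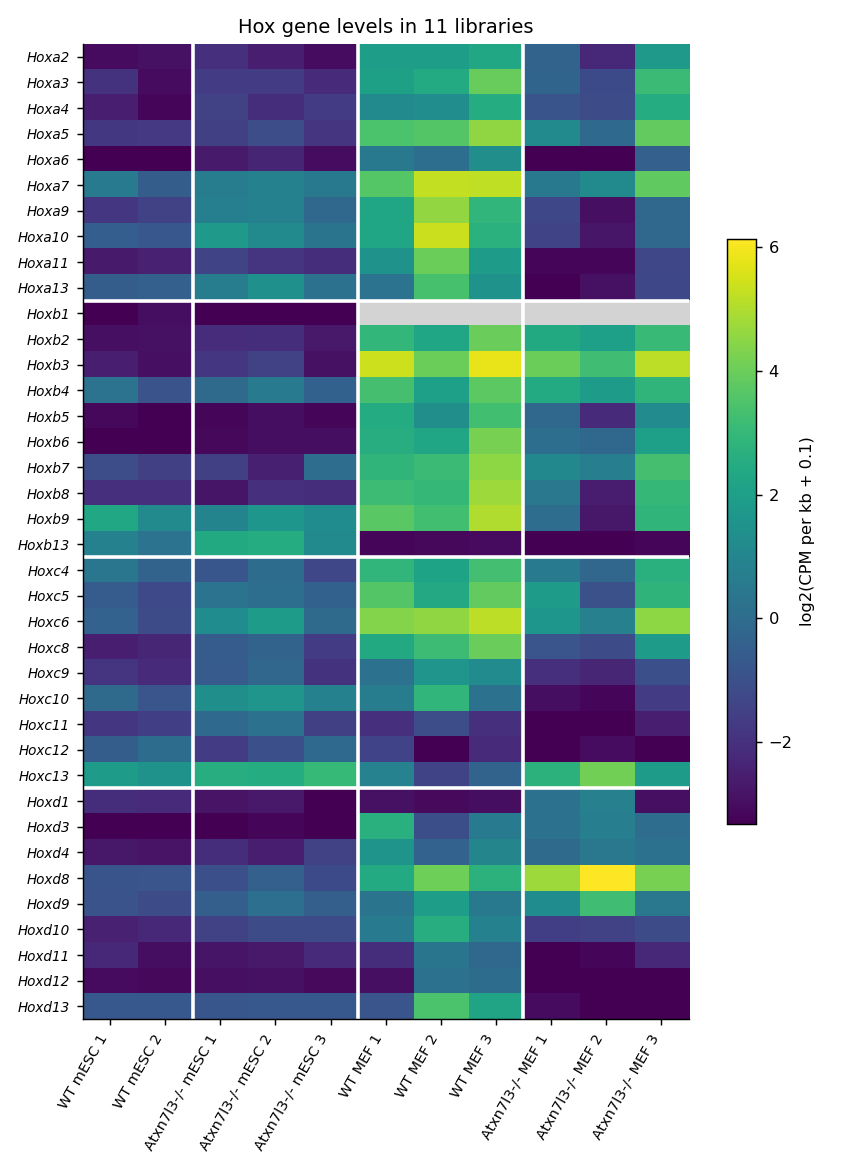
Levels of 38 Hox genes in the 11 libraries, as log2(CPM per kb + 0.1) in colour, with genes in rows by cluster and paralogue number and libraries in columns by group. Grey cells mark Hoxb1, which was not listed in MEFs. Most rows of HoxA, HoxB, HoxC and HoxD are darker in WT mESCs than in WT MEFs, Hoxb13, Hoxc12, Hoxc13 and Hoxd1 being among the exceptions. The row of Hoxd8 is brightest in labelled Atxn7l3-/- MEF 2, at 69.9 CPM per kb.

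By the mean over the 3 libraries, the highest HoxB gene in WT MEFs was Hoxb3, a gene of the hindbrain and neck, at 42.1, 16.1 and 56.1 CPM per kb in WT 1, 2 and 3 against 0.0746 and 0.0322 CPM per kb in the WT mESCs. The log2 difference between the WT groups was 9.405 (SE 1.13, edgeR adjusted p = 9.556e-05), and no MEF library came near an mESC library. The highest HoxA gene was Hoxa7, a thoracic patterning gene, at 12.4, 37.9 and 37.1 CPM per kb, and the highest HoxC gene was Hoxc6, at 20.5, 23.7 and 36.5 CPM per kb. The highest HoxD gene was Hoxd8, at 5.43, 16.3 and 6.62 CPM per kb, below the leading gene of every other cluster in WT 1 and WT 3, and in WT 1 also below Hoxd3 at 6.33 CPM per kb. For Hoxb6 the WT mESCs held 0 counts and the WT MEFs 1928, at least 262.5-fold higher with 3 counts allowed per mESC library, and Hoxd3 (0 against 898) and Hoxa6 (0 against 172) were at least 107.5-fold and 23.3-fold higher. These 3 genes were picked out after their values were seen.

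The WT MEF cultures differed from each other in the share of each paralogue class. Posterior genes made 15.7%, 44.0% and 16.1% of the summed Hox level in WT 1, 2 and 3, and anterior genes 30.4%, 10.4% and 23.9%. WT 2 was thus the library with the largest share of RNA from posterior genes, with Hoxa10 at 40.9 CPM per kb as its highest Hox gene, where Hoxb3 led in WT 1 and WT 3. Not every posterior gene was highest in WT 2, and Hoxb9 was lowest there, at 22.9 CPM against 31.4 and 77.4 CPM in WT 1 and WT 3. Whether limb cells or a level of the trunk carried this share was not tested. Hoxd13, the last gene of its cluster and a factor of digits and genitalia, was at 1.16 CPM in WT 1, 26.9 CPM in WT 2 and 11.1 CPM in WT 3.

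In WT mESCs the order was the other way round, with posterior genes making 61.8% and 64.3% of a small total. The leading HoxB gene was Hoxb9 at 11.8 and 5.12 CPM, and the leading HoxC gene was Hoxc13 at 8.76 and 6.76 CPM. Hoxd13 led HoxD at 1.28 and 1.27 CPM. Hoxb9 did not pass the test between the cell types (log2 difference 2.37, edgeR adjusted p = 0.146), nor did Hoxc13 (log2 difference -1.80, edgeR adjusted p = 0.0520). The 1 gene called higher in mESCs was Hoxb13, which lies apart from the rest of its cluster and was named after its values were seen. It held 315 counts in the WT mESCs and 4 in the WT MEFs, a 95.2-fold difference with a 95% counting interval of 36.8 to 351.4.

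**Figure D2:**
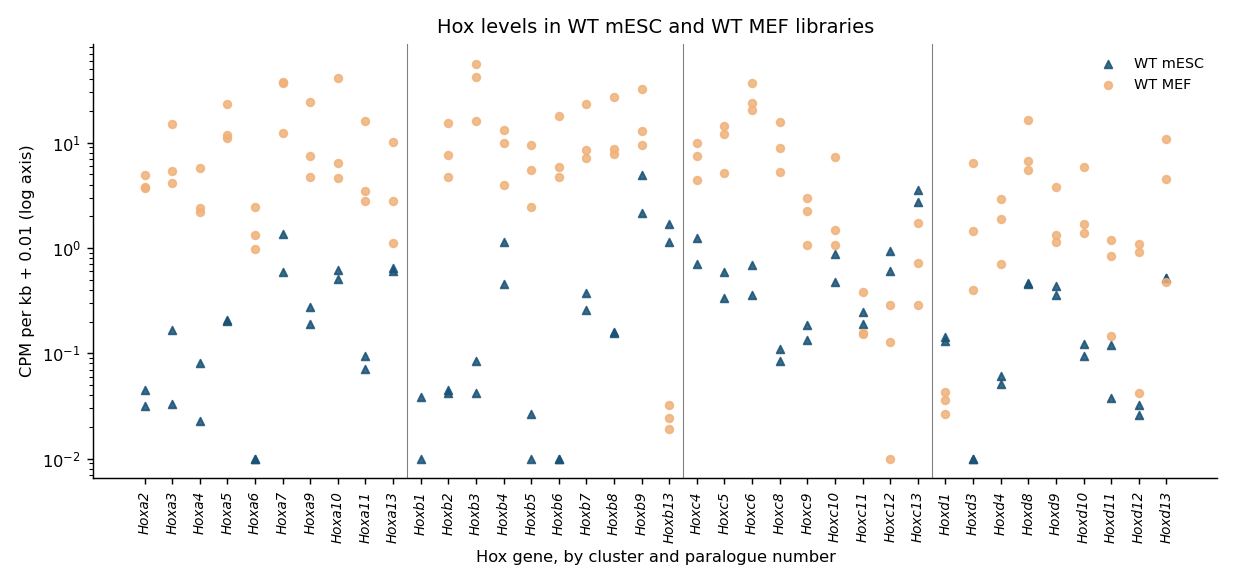
Levels of 38 Hox genes in the 2 WT mESC (triangles) and 3 WT MEF (circles) libraries, in CPM per kb + 0.01 on a log axis, with genes ordered by cluster and paralogue number. The 15 central genes lie higher in every MEF library than in either mESC library, and Hoxb13, Hoxc12, Hoxc13 and Hoxd1 lie lower.

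The labelled Atxn7l3-/- MEFs were then compared with WT MEFs. Of 34 Hox genes tested, 6 were lower and 0 higher at an edgeR adjusted p of at most 0.05, where 4.39% of all 15958 genes tested were lower and 5.01% higher. DESeq2 called 13 lower and 2 higher, where it called 13.9% of all genes lower and 10.8% higher, and 15 of the 34 were under an unadjusted p of 0.05 in edgeR, as were 32.4% of all genes. The 6 were Hoxa9, Hoxa10, Hoxa11, Hoxc9, Hoxd10 and Hoxd13, all of them posterior genes. By class this was 6 of 13 posterior genes, 0 of 15 central genes (4 under an unadjusted p of 0.05 in edgeR, 5 called by DESeq2) and 0 of 6 anterior genes (0 under an unadjusted p of 0.05 in edgeR, 0 by DESeq2). The median log2 fold change was -4.16 for posterior, -1.51 for central and -1.06 for anterior genes, and -0.06 over all genes tested. Several posterior genes passed the filter on low counts only through the WT libraries, so the class calls and medians depend on it. Hoxa11 held 1, 1 and 22 counts in labelled Atxn7l3-/- MEF 1, 2 and 3, and Hoxd13 held 2, 0 and 0. With at least 10 counts in every library, 1 of 21 Hox genes was called, Hoxd10, and the median over the 21 was -1.38.

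Same-numbered WT and labelled Atxn7l3-/- MEF libraries tended to deviate together, although the sample titles do not state that they are pairs. With a block on these numbers edgeR called 11 Hox genes lower and 1 higher, where 8.49% of all genes were lower and 5.5% higher. In the blocked fit Hoxa9 and Hoxa10 no longer passed (adjusted p = 0.0636 and 0.0714), and Hoxa7, Hoxa13, Hoxb5, Hoxb6, Hoxb7, Hoxc8 and Hoxd11 joined the lower genes and Hoxd8 was the higher one. The blocked calls held 6 posterior and 6 central genes, while 0 anterior genes passed. Without labelled Atxn7l3-/- replicate 3, the unblocked fit called 20 Hox genes, and without labelled replicate 1, labelled replicate 2 or WT 3 it called 0 (12, 11 and 12 under an unadjusted p of 0.05). WT 3 is the library with little Ddx3y, and without WT 1 or WT 2 the count was 2 each. Shares over all genes were not counted for the fits with 1 library left out, so these counts cannot be set against them.

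**Figure D3:**
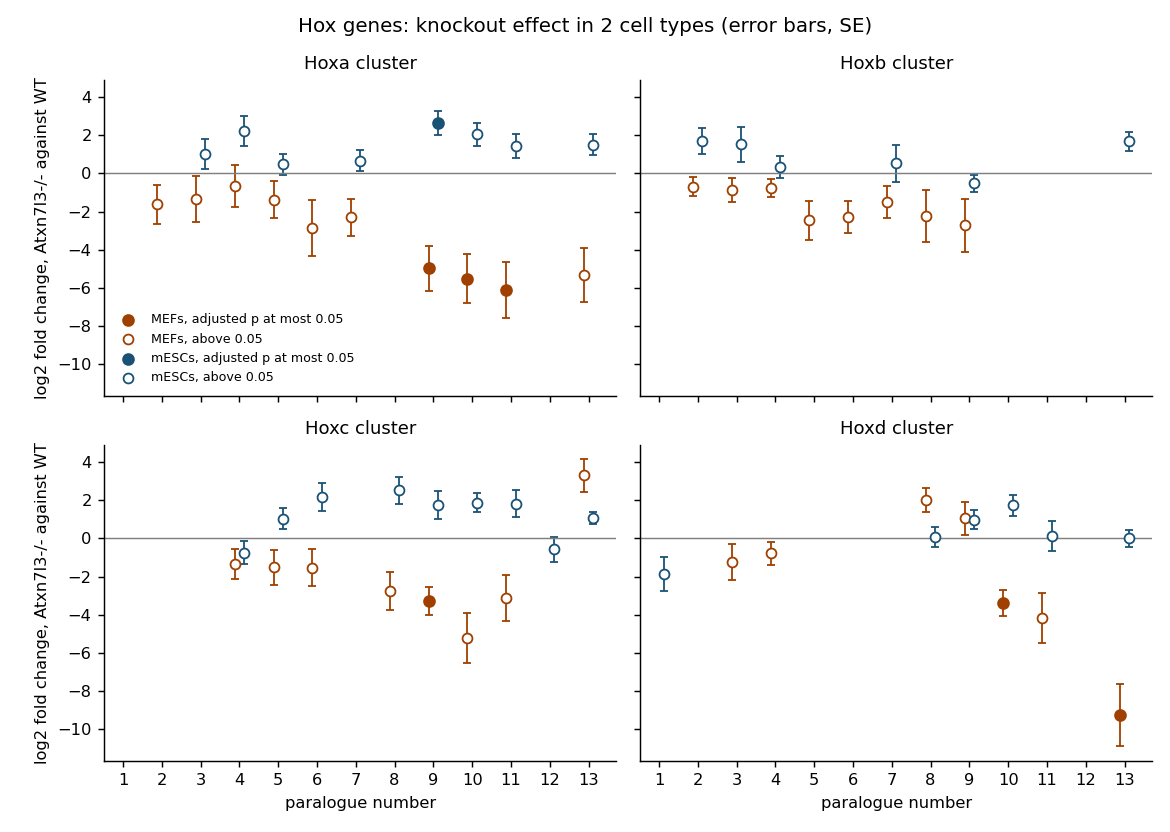
Log2 fold change of Hox genes between Atxn7l3-/- and WT cells against its paralogue number, in 1 panel per cluster, for MEFs (brown) and mESCs (blue), with SE as bars and filled points for an edgeR adjusted p of at most 0.05. In MEFs the points reach down to -6.11 in Hoxa11 and -9.27 in Hoxd13, and Hoxc13, Hoxd8 and Hoxd9 lie above 0, at 3.30, 2.01 and 1.05.

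Towards the 5' end of HoxA, Hoxa9, Hoxa10 and Hoxa11 were lower, of which Hoxa11 also passed with the block. Hoxa9, a gene of the thoracolumbar boundary, was at 4.01, 20.4 and 6.31 CPM in WT 1, 2 and 3 and at 0.265, 0.0255 and 0.687 CPM in the labelled Atxn7l3-/- MEFs. Hoxa10, which with its paralogues patterns the lumbar vertebrae and the thigh, was at 7.31, 64.3 and 10.1 CPM against 0.450, 0.0766 and 1.25 CPM. Hoxa11, which with its paralogues patterns the forearm and lower leg, was at 6.13, 35.4 and 7.67 CPM against 0.0265, 0.0255 and 0.657 CPM. For each of these genes every labelled Atxn7l3-/- library lay below every WT library, WT 2 was the highest and labelled Atxn7l3-/- 3 the closest to WT. The log2 fold changes were -4.97 (SE 1.18, edgeR adjusted p = 0.0475), -5.51 (SE 1.31, edgeR adjusted p = 0.0478) and -6.11 (SE 1.47, edgeR adjusted p = 0.0492). Hoxa13, the digit and hindgut gene at the end of the cluster, was at 0.855, 7.86 and 2.14 CPM against 0, 0.0255 and 0.239 CPM, also without overlap, with a log2 fold change of -5.33 (SE 1.43) that did not pass (edgeR adjusted p = 0.0622). Summed over Hoxa9 to Hoxa13 the level was 13.3, 91.3 and 20.1 CPM per kb in WT and 0.610, 0.124 and 2.22 CPM per kb in labelled Atxn7l3-/- MEFs. Across the 11 HoxA genes Spearman's rho between log2 fold change and paralogue number was -0.9, a description across neighbouring genes that share libraries.

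From Hoxa7 towards the 3' end of HoxA the fold changes were smaller. Hoxa7 was at 10.0, 30.6 and 29.95 CPM in WT against 1.06, 1.71 and 11.4 CPM in labelled Atxn7l3-/- MEFs, with a log2 fold change of -2.29 (SE 0.97, edgeR adjusted p = 0.157, 0.0447 with the block). Only labelled Atxn7l3-/- 3 reached the WT range for this gene. From Hoxa2 to Hoxa6 the log2 fold changes lay between -2.87 and -0.65, with edgeR adjusted p of 0.216 to 0.709, or 0.0783 to 0.154 with the block.

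In HoxC, Hoxc9 was at 1.59, 4.43 and 3.36 CPM in WT and 0.212, 0.153 and 0.598 CPM in labelled Atxn7l3-/- MEFs, without overlap (log2 fold change -3.27, SE 0.73, edgeR adjusted p = 0.0422). Its neighbour Hoxc8 was at 10.7, 18.2 and 32.1 CPM against 0.954, 0.740 and 7.20 CPM, again without overlap (log2 fold change -2.76, SE 0.98, edgeR adjusted p = 0.112, 0.0280 with the block). Hoxc10 was at 2.79, 13.9 and 2.00 CPM against 0.0530, 0.0255 and 0.418 CPM (log2 fold change -5.22, SE 1.32, edgeR adjusted p = 0.0546). Hoxc6, the highest of the cluster in WT, was at 18.4, 21.2 and 32.7 CPM against 2.68, 1.46 and 20.7 CPM, and labelled Atxn7l3-/- 3 lay inside the WT range (log2 fold change -1.53, SE 0.96, edgeR adjusted p = 0.305). Hoxc13, a gene of hair, nails and the tail, went the other way, at 4.23, 0.686 and 1.73 CPM in WT and 16.3, 42.1 and 8.99 CPM in labelled Atxn7l3-/- MEFs. The groups did not overlap, and its log2 fold change of 3.30 (SE 0.86) did not pass (edgeR adjusted p = 0.0582). The spans of Hoxc5 and of Hoxc6, Hoxc8, Hoxc9 and Hoxc10 overlap on the same strand, as do those of Hoxa3 with Hoxa4, Hoxa5 and Hoxa6 and of Hoxd3 with Hoxd4, so the division of reads between these genes is uncertain.

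In HoxB no gene passed without the block (0 of 8 in edgeR, 2 under an unadjusted p of 0.05, 2 in DESeq2), and all 8 log2 fold changes were below 0, from -2.71 to -0.70. Hoxb3 was at 53.8, 20.6 and 71.6 CPM in WT against 20.3, 11.8 and 47.0 CPM in labelled Atxn7l3-/- MEFs, with overlap (log2 fold change -0.89, SE 0.63, edgeR adjusted p = 0.356). Hoxb9, at the other end, was at 31.4, 22.9 and 77.4 CPM against 2.28, 0.128 and 17.5 CPM, without overlap (log2 fold change -2.71, SE 1.39, edgeR adjusted p = 0.221). With the block, Hoxb5, Hoxb6 and Hoxb7 were lower, at log2 fold changes of -3.01, -2.44 and -1.83 (edgeR adjusted p = 0.0319, 0.0190 and 0.0453).

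HoxD held genes with log2 fold changes of both signs. Hoxd13 was at 1.16, 26.9 and 11.1 CPM in WT MEFs and at 0.0530, 0 and 0 CPM in labelled Atxn7l3-/- MEFs. Every labelled library lay below every WT library, and WT 1 was far below the other WT libraries. The counts were 1375 in WT and 2 in labelled Atxn7l3-/- MEFs, a 620.7-fold ratio with a 95% counting interval of 171.5 to 5131, and the fitted log2 fold change of -9.27 (SE 1.63, edgeR adjusted p = 0.0248) depends on the prior count. Hoxd12 held 186 counts in WT and 0 in labelled Atxn7l3-/- MEFs, at least 20.8-fold lower with 3 counts allowed per library, and was not tested within MEFs because it was under the filter on low counts. Hoxd10, which with Hoxa10 patterns the hindlimb and lumbar motor neurons, was at 2.52, 10.6 and 3.04 CPM against 0.424, 0.485 and 0.627 CPM, without overlap (log2 fold change -3.39, SE 0.70, edgeR adjusted p = 0.0378). Hoxd11 lay between them, at 0.305, 2.65 and 1.85 CPM against 0, 0.0255 and 0.239 CPM (log2 fold change -4.16, SE 1.32, edgeR adjusted p = 0.0880, 0.0436 with the block).

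Further 3' in HoxD, no gene passed in the first edgeR fit, and 1 passed with the block. This was Hoxd8, which was at 9.55, 28.7 and 11.6 CPM in WT and 47.1, 122.9 and 32.2 CPM in labelled Atxn7l3-/- MEFs, every labelled library being above every WT library (log2 fold change 2.01, SE 0.63, edgeR adjusted p = 0.0863, 0.0185 with the block). DESeq2 without the block also called 1 central HoxD gene higher, and Hoxd8 was the only 1 of them with a log2 fold change above 0. Hoxd8 was the highest Hox gene per kb in labelled Atxn7l3-/- 1 and 2. Hoxd9, the gene between Hoxd8 and Hoxd10, was at 2.42, 8.05 and 2.83 CPM against 4.90, 20.1 and 2.72 CPM and overlapped between genotypes (log2 fold change 1.05, SE 0.85, edgeR adjusted p = 0.416). Hoxd4 and Hoxd3 had log2 fold changes of -0.79 and -1.24 (edgeR adjusted p = 0.384 and 0.387), and both overlapped between genotypes. Hoxd1, which was under the filter on low counts within MEFs, was at 0.0611, 0.0312 and 0.0487 CPM in WT and 1.96, 3.01 and 0.0598 CPM in labelled Atxn7l3-/- MEFs, so 2 libraries were high and the third one was at the level of a few counts. Its counts were 6 in WT and 194 in labelled Atxn7l3-/- MEFs, a 35.8-fold ratio with a counting interval of 16.2 to 98.8 that does not cover the spread between embryos. HoxD made 8.20%, 13.1% and 4.71% of the summed Hox level in WT and 35.7%, 64.1% and 10.8% in labelled Atxn7l3-/- MEFs, with overlap between the groups.

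The 250 bases before the RefSeq start of 3 HoxD genes, Hoxd13 and Hoxd10 (lower) and Hoxd8 (higher in the blocked fit), and of Hoxa11 are shown so that the starts of genes with opposite changes can be compared. They are printed 5' to 3' on the strand of the gene, from GRCm38.p6, and capitals mark matches on either strand to the CCAAT box (CCAAT) and the TATA box (TATAAA). Their positions are chr2:74667975-74668224 for Hoxd13, chr2:74691641-74691890 for Hoxd10, chr2:74704365-74704614 for Hoxd8, all on the plus strand, and chr6:52245811-52246060 on the minus strand for Hoxa11.
Hoxd13: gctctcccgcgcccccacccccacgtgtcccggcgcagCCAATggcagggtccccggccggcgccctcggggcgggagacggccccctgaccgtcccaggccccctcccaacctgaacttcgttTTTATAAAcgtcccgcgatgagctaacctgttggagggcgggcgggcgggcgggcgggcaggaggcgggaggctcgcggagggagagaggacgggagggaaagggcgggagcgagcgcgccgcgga
Hoxd10: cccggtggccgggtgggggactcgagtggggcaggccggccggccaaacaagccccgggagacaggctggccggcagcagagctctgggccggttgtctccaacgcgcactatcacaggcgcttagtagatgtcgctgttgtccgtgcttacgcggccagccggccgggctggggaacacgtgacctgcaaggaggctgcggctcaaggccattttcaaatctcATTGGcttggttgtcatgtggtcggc
Hoxd8: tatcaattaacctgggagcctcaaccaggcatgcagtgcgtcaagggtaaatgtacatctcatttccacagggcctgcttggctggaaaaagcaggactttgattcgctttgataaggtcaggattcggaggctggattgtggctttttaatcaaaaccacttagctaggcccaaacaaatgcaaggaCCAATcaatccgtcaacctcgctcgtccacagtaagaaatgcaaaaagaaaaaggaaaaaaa
Hoxa11: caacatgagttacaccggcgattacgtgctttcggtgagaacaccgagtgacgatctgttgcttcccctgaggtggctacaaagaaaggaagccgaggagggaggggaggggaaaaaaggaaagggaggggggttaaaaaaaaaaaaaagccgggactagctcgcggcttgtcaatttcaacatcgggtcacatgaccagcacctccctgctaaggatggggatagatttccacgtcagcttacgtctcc
Hoxd13 held a CCAAT match whose first base was 212 bases before the start and overlapping TATAAA matches on both strands 124 and 126 bases before it, Hoxd10 a reverse CCAAT match 26 bases and Hoxd8 a forward one 62 bases before it, and Hoxa11 neither. GC content was 74.4% in Hoxd13, 65.6% in Hoxd10, 44.4% in Hoxd8 and 52% in Hoxa11, against a median of 52.4% over 32851 RefSeq promoters. For 22 of the 39 Hox genes a promoter was found in the table, and 13 of these (59.1%) held CCAAT and 3 (13.6%) TATAAA, against 33.9% and 12.4% of all promoters. The motif TTTATNG, a form of the CDX site, was in 2 of the 22 (9.09%, all promoters 9.81%) and TGATTNAT, a PBX-HOX site, in 1 (4.55%, all promoters 2.83%). A match is a description of letters and not a site shown to be bound.

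**Figure D4:**
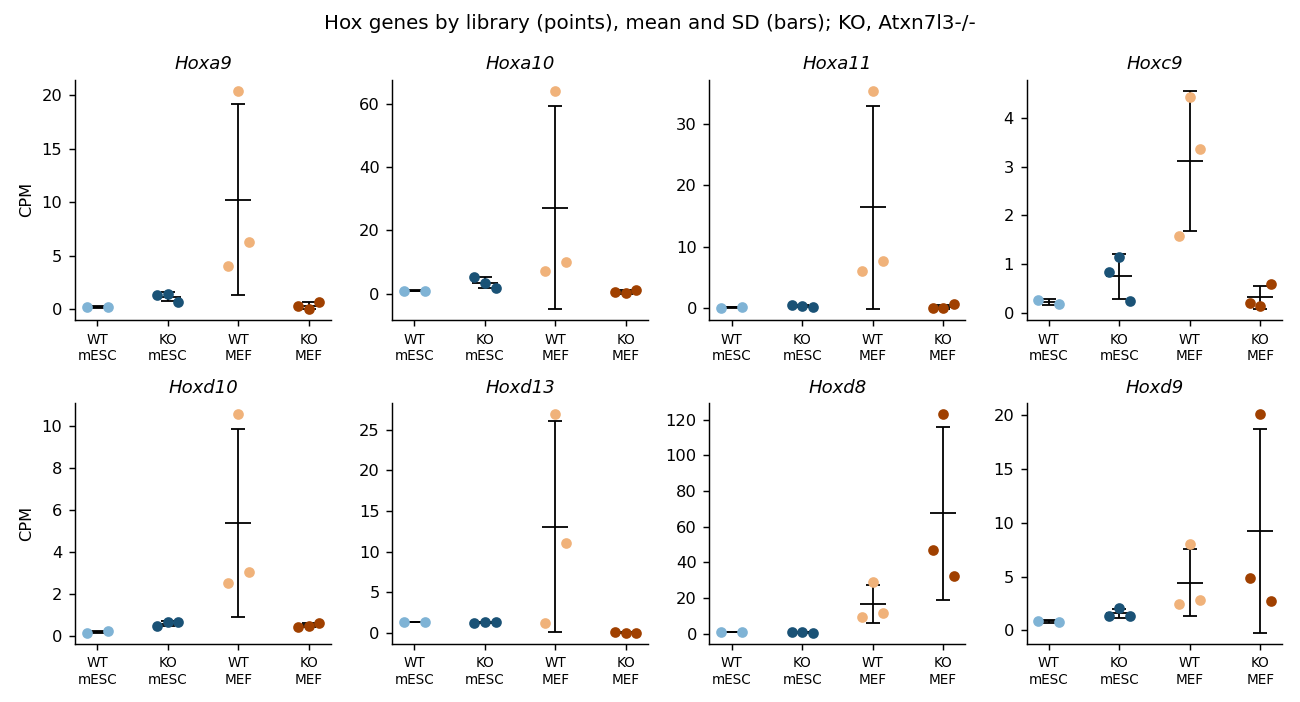
CPM of 8 Hox genes in each library (points), with the group mean and SD (bars), for WT and Atxn7l3-/- (KO) mESCs and MEFs on linear axes. Hoxa9, Hoxa10, Hoxa11, Hoxc9, Hoxd10 and Hoxd13 lie near 0 in labelled KO MEFs, where Hoxd8 reaches 122.9 CPM and Hoxd9 20.1 CPM.

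Counted without a model, every labelled Atxn7l3-/- MEF library lay below every WT library in 16 of the 34 Hox genes tested, where this held for 19.7% of all genes tested, and above in 2, Hoxc13 and Hoxd8 (20.1% of all genes). The 16 were 1 anterior, 4 central and 11 posterior genes. The summed posterior level was 34.1, 134.3 and 65.5 CPM per kb in WT against 10.9, 27.1 and 15.5 CPM per kb in labelled Atxn7l3-/- MEFs, which did not overlap. The central sums were 117.5, 139.6 and 244.1 CPM per kb against 50.6, 83.7 and 125.7 CPM per kb, and the anterior sums 66.1, 31.7 and 97.1 CPM per kb against 29.1, 20.2 and 63.1 CPM per kb. In both of these classes labelled Atxn7l3-/- 3 fell within the WT range. Over the 34 genes Spearman's rho between log2 fold change and paralogue number was -0.625, with -0.762 in HoxB (n = 8), -0.262 in HoxC (n = 8) and -0.679 in HoxD (n = 7). Log2 fold changes fell as transcript GC content rose over all genes (rho -0.394, n = 15944) but rose with it over the Hox genes (rho 0.246, n = 34). The median GC content was 54.2% for the Hox genes against 50.4% over all genes. With a GC correction the count of Hox calls was 3, or 8 with the block added. Hoxa9, Hoxa10 and Hoxa11, which were lost with the GC correction alone, then had log2 fold changes of -4.94, -5.38 and -5.96 (edgeR adjusted p = 0.0561, 0.0566 and 0.0580).

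**Figure D5:**
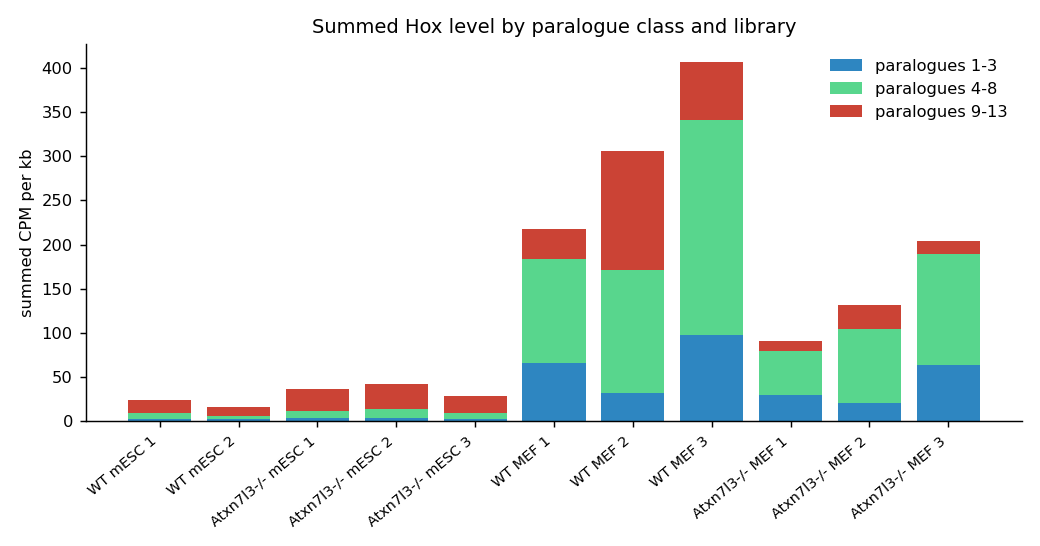
Summed Hox level of each library in CPM per kb, stacked by paralogue class (1 to 3, 4 to 8 and 9 to 13). The posterior part is largest in WT MEF 2, at 134.3 CPM per kb, and is 10.9 to 27.1 CPM per kb in the labelled Atxn7l3-/- MEFs.

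In mESCs the same genotype comparison gave 1 Hox gene of 30 tested, Hoxa9, which was higher, where 3.08% of all 17800 genes tested were higher and 3.88% lower in edgeR. DESeq2 called 7 Hox genes higher and 0 lower, where it called 9.77% of all genes higher and 9.48% lower, and 14 of the 30 were under an unadjusted p of 0.05 in edgeR, as were 29.8% of all genes. Hoxa9 was at 0.152 and 0.226 CPM in WT mESCs and 1.36, 1.41 and 0.696 CPM in Atxn7l3-/- mESCs, without overlap (log2 fold change 2.64, SE 0.61, edgeR adjusted p = 0.0454). Without Atxn7l3-/- mESC 1 or 2, the libraries with little Ddx3y, the count was 0 each (9 and 8 under an unadjusted p of 0.05), it was 0 without either WT library (8 and 2), and without Atxn7l3-/- mESC 3 it was 7. Of the 30 log2 fold changes 26 were above 0, with a median of 1.06 against 0.04 over all genes tested.

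Other posterior genes and the central gene Hoxc8 had log2 fold changes of the same sign in mESCs. Hoxa10 was at 0.952 and 0.781 CPM in WT and 5.23, 3.40 and 1.82 CPM in Atxn7l3-/- mESCs (log2 fold change 2.05, SE 0.59, edgeR adjusted p = 0.0736). Hoxc10 was at 1.64 and 0.884 CPM against 4.80, 5.62 and 3.19 CPM (log2 fold change 1.88, SE 0.51, edgeR adjusted p = 0.0661), and Hoxd10 at 0.152 and 0.206 CPM against 0.462, 0.642 and 0.651 CPM (log2 fold change 1.75, SE 0.55, edgeR adjusted p = 0.0876). None of these 3 genes overlapped between genotypes, although their adjusted p did not pass. Hoxa11 and Hoxa13 had log2 fold changes of 1.45 and 1.51, also without overlap, with a highest level of 1.99 CPM for Hoxa13 in Atxn7l3-/- mESC 2. Hoxc8 was at 0.152 and 0.206 CPM in WT against 1.18, 1.43 and 0.427 CPM (log2 fold change 2.53, SE 0.70, edgeR adjusted p = 0.0680). Hoxc13, the highest Hox gene per kb in WT mESC 2 and in Atxn7l3-/- mESC 1 and 3, was at 8.76 and 6.76 CPM against 14.3, 13.8 and 19.3 CPM (log2 fold change 1.08, SE 0.33, edgeR adjusted p = 0.0805).

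The posterior genes Hoxd13 and Hoxb9 and the anterior gene Hoxd1 did not share this pattern. Nor did posterior Hoxc12 and Hoxd11 and central Hoxc4, at log2 fold changes of -0.56, 0.15 and -0.74 (edgeR adjusted p = 0.597, 0.920 and 0.427), with overlap. Hoxd13 was at 1.28 and 1.27 CPM in WT mESCs and 1.18, 1.26 and 1.26 CPM in Atxn7l3-/- mESCs, so the 3 Atxn7l3-/- libraries lay slightly below both WT libraries and the difference did not pass the test (log2 fold change 0.00, SE 0.45, edgeR adjusted p = 0.999). Hoxb9 was at 11.8 and 5.12 CPM against 4.39, 7.38 and 5.55 CPM, and the genotypes overlapped (log2 fold change -0.52, SE 0.45, edgeR adjusted p = 0.478). Hoxd1 was at 0.248 and 0.226 CPM in WT against 0.0770, 0.107 and 0 CPM, below WT in each library (log2 fold change -1.87, SE 0.89, edgeR adjusted p = 0.204). Every Atxn7l3-/- mESC library was above both WT libraries in 16 of the 30 genes tested and below in 2, where this held for 23.0% and 26.7% of all genes.

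The mESC lines had been grown over feeder fibroblasts, and the summed level of the 8 fibroblast markers was 1377 and 2396 CPM in WT against 3014, 3250 and 5128 CPM in Atxn7l3-/- mESCs. Of the 8, 1 was higher, Col1a1 (log2 fold change 2.54, edgeR adjusted p = 0.0469), where 3.08% of all genes were higher. The part of such cells in the Hox values was not tested. Of the genes that led their clusters in WT MEFs, Hoxc6 was at 0.609 and 0.308 CPM in WT and 2.05, 3.25 and 0.764 CPM in Atxn7l3-/- mESCs, above WT in each library (log2 fold change 2.16, SE 0.74, edgeR adjusted p = 0.104). Hoxb3 was at 0.0952 and 0.0411 CPM against 0.231, 0.321 and 0.0449 CPM, Hoxa7 at 1.09 and 0.473 CPM against 1.21, 1.35 and 1.06 CPM and Hoxd8 at 0.781 and 0.802 CPM against 0.693, 1.13 and 0.584 CPM, and these 3 genes overlapped between genotypes (edgeR adjusted p = 0.295, 0.449 and 0.948). The summed Hox level was 36.4, 42.3 and 28.8 CPM per kb in Atxn7l3-/- mESCs against 23.5 and 15.9 CPM per kb in WT, and 90.5 CPM per kb in the lowest MEF library.

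The knockout effect in MEFs was then set against that in mESCs by an interaction term over all 11 libraries. Of 38 Hox genes tested, 10 had a lower and 1 a higher effect in MEFs, where 5.27% of all 19312 genes were lower and 6.15% higher. The 10 were Hoxa9, Hoxa10, Hoxa11, Hoxa13, Hoxc8, Hoxc9, Hoxc10, Hoxd10, Hoxd12 and Hoxd13, which are 9 of the 16 posterior genes and 1 of the 15 central genes, and the 1 higher was the anterior gene Hoxd1. The differences of log2 fold change were -7.57 (SE 1.51, edgeR adjusted p = 0.0151) for Hoxa9, -7.52 (SE 1.62, edgeR adjusted p = 0.0196) for Hoxa10, -7.52 (SE 1.76, edgeR adjusted p = 0.0259) for Hoxa11 and -6.83 (SE 1.68, edgeR adjusted p = 0.0298) for Hoxa13. They were -5.26 (edgeR adjusted p = 0.0365) for Hoxc8, -4.997 (0.0238) for Hoxc9 and -7.08 (0.0213) for Hoxc10, and -5.08 (0.0130) for Hoxd10 and -9.23 (0.0125) for Hoxd13. These 9 genes lay below WT in every labelled Atxn7l3-/- MEF library, and apart from Hoxc9 and Hoxd13 they lay above WT in every Atxn7l3-/- mESC library. Hoxd12 (-9.63, edgeR adjusted p = 0.0365) rests on 0 counts in the labelled Atxn7l3-/- MEFs, so its size depends on the prior count, and in mESCs it held only 5 and 9 counts in WT and Atxn7l3-/-. Hoxd1 had a difference of 6.94 (edgeR adjusted p = 0.0322, 0.0617 with the block). Without WT mESC 1 or WT mESC 2, 0 Hox genes passed in edgeR (17 and 14 under an unadjusted p of 0.05), the lone WT mESC library then being assumed to vary like the other groups. The count was 23 without labelled Atxn7l3-/- MEF 3, 7 each without labelled Atxn7l3-/- MEF 1 or 2, and 5 without Atxn7l3-/- mESC 1. It was 9 without Atxn7l3-/- mESC 2 and 8 without WT MEF 3.

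The genes that work with or upstream of Hox proteins were counted on lists set beside the Hox genes. In edgeR, 4.39% of all genes tested in MEFs were lower and 5.01% higher, and in mESCs 3.88% were lower and 3.08% higher. A list count is set beside these shares and is not read as a result about the list as a whole. Of 9 TALE homeodomain cofactors (PBX, MEIS and PKNOX), which bind DNA together with Hox proteins, 1 passed in MEFs, at a median log2 fold change of -0.58. This was Meis2, at 44.2, 63.1 and 83.5 CPM in WT and 149, 200.9 and 124.6 CPM in labelled Atxn7l3-/- MEFs (log2 fold change 1.30, SE 0.29, edgeR adjusted p = 0.0436), without overlap. In mESCs 0 of the 9 passed in edgeR, at a median log2 fold change of 0.86.

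Of 19 upstream activators and ParaHox genes, 9 were tested in MEFs and 1 was higher, Cyp26a1, which degrades retinoic acid (log2 fold change 2.55, SE 0.51, edgeR adjusted p = 0.0333), at no more than 0.848 CPM in any MEF library, and the median log2 fold change was -0.46. Over all genes tested in MEFs, 5.01% were higher and 4.39% lower. In mESCs 4 of 17 were lower and 0 higher in edgeR, at a median of -0.25, where 3.88% of all genes were lower and 3.08% higher. Cdx2, which activates central and posterior Hox genes in the tail bud, was at 6.89 and 3.99 CPM in WT and 0.718, 1.11 and 0.180 CPM in Atxn7l3-/- mESCs (log2 fold change -2.98, SE 0.70, edgeR adjusted p = 0.0479). The others were Zbtb16 (-4.40), the retinoic acid receptor gene Rarg (-1.47) and Men1 (-0.85), a partner of the MLL methyltransferases, with edgeR adjusted p of 0.0224, 0.0310 and 0.0408.

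Of the 9 other RNAs of the clusters tested in MEFs, 1 was lower (4.39% of all genes), Hoxa11os, the antisense RNA of Hoxa11. It was at 0.692, 7.73 and 2.31 CPM in WT against 0.0265, 0 and 0.0299 CPM (log2 fold change -7.38, SE 1.30, edgeR adjusted p = 0.0246). Its reads can be told from those of Hoxa11 only if counting used strand, which was not given in the sources used here. Among 14 coding neighbours outside the clusters, Snx10 beside HoxA (log2 fold change 2.01, edgeR adjusted p = 0.0377) and Mtx2 beside HoxD (1.23, 0.0476) were higher and Skap1 beside HoxB (-3.05, 0.0442) was lower in labelled Atxn7l3-/- MEFs. Over all genes tested in MEFs, 5.01% were higher and 4.39% lower. Mtx2 lies past the 3' end of HoxD and was at 49.2, 60.9 and 56.7 CPM against 136.4, 177 and 82.2 CPM. Every labelled library lay above every WT library, as in 20.1% of all genes tested. In mESCs Atf2 was the 1 neighbour of 15 to pass, and was lower (log2 fold change -0.91, edgeR adjusted p = 0.0346), where 3.88% of all genes were lower.

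Of 20 limb and axial position factors tested in MEFs, 2 were lower and 0 higher in edgeR, at a median log2 fold change of -2.53. Over all genes tested, 4.39% were lower and 5.01% higher. Alx4, an anterior limb bud and body wall gene, was at 20.8, 12.4 and 15.9 CPM against 0.636, 0.0511 and 0.359 CPM (log2 fold change -5.57, SE 0.85, edgeR adjusted p = 0.0183). Tbx15, a gene of limb and dermal mesenchyme, was at 33.8, 210.6 and 45.4 CPM against 6.33, 3.80 and 12.7 CPM (log2 fold change -3.66, SE 0.86, edgeR adjusted p = 0.0464, 0.0698 with the block). For Tbx15, as for Hoxa9 to Hoxa13, WT 2 was the highest library.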

How the data were processed

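Poly(A) RNA was sequenced from 5 mESC and 6 MEF libraries. Per the labels, the authors trimmed reads with cutadapt 1.10, aligned them to mm10 with STAR 2.5.3a and counted them per gene with HTSeq 0.6.1p1. The strand setting is not given in the sources used here. The deposited tables, 1 per cell type, hold raw counts, which were tested here. The authors also deposited normalized signal, made by dividing the counts by 1 size factor per library and, in further columns, by median transcript length. This signal and the lengths served for 1 alternative and for levels per kb. The columns of fold changes and p-values hold the authors' own DESeq2 1.16.1 comparison and were not used. The authors left out 1 WT mESC dataset.

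Counts were filtered with filterByExpr, scaled by TMM and tested with the quasi-likelihood test of edgeR 4.0.16 in R 4.3.3, with Benjamini-Hochberg adjustment over all genes tested and a threshold of 0.05. Genotypes were compared within each table. The cell types and the interaction were fitted on the 26398 genes in both tables and all 11 libraries. DESeq2 1.42.0, other scalings and filters, a GC correction, the thresholds of the study, the replicate block and each library left out in turn were alternatives. Scripts were tested on simulated data. Counting intervals are at 95% and cover counting error only, like the floor of 3 counts.

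Replicates are separate embryos or blastocyst lines. Deviations of same-numbered WT and labelled Atxn7l3-/- MEFs correlated at 0.473, 0.161 and 0.240 (15958 genes), other pairs at -0.262 to 0.0516. The block took the numbers as pairs in MEFs for this reason, which the sample titles do not state. Deviations from a group mean cancel within the group, so these correlations are linked and do not establish the pairing. Values in every library are given for Hox genes that passed in MEFs, in mESCs or by the interaction and for the leading gene of each cluster in each WT group, and outside the clusters for list genes that passed. The values of 1 Hox gene are not reported here and not drawn in the plots of single genes, although it is in the counts and sums. Members and lists were chosen with earlier results of these data known. All 39 Hox genes had the coordinates of GENCODE M21. Promoters are RefSeq sequences of GRCm38.p6.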

Additional observations from a re-analysis of the deposited data

Results flagged for a closer look

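The knockout effect differed between MEFs and mESCs, by edgeR's interaction test, for 11 Hox genes. The differences of log2 fold change, MEFs minus mESCs, were -7.57 for Hoxa9, -7.52 for Hoxa10, -7.52 for Hoxa11 and -6.83 for Hoxa13 in HoxA. In HoxC they were -5.26 for Hoxc8, -4.997 for Hoxc9 and -7.08 for Hoxc10. In HoxD they were -5.08 for Hoxd10, -9.63 for Hoxd12, -9.23 for Hoxd13 and 6.94 for Hoxd1. Hoxd12 and Hoxd13 rest on 0 and 2 counts in the labelled Atxn7l3-/- MEFs, and Hoxd1 on labelled Atxn7l3-/- MEF 1 and 2.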

How the results depend on the processing

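Of 34 Hox genes in MEFs, edgeR called 6. The count was 14 in 1 fit of all 11 libraries, 15 with DESeq2, 3 with a GC correction, 1 of 21 with at least 10 counts in every library, 11 with no filter and 12 with the replicate block, and 0 to 20 with 1 library left out. In mESCs it was 1, and 0 in 1 fit of all 11 libraries (5 under an unadjusted p of 0.05), 7 with DESeq2, 6 with the GC correction and replicate block, 0 of 17 with at least 10 counts in every library (7 under an unadjusted p of 0.05), 6 with no filter, 6 with the replicate block, and 0 to 7 with 1 library left out. Same-numbered mESCs correlated at 0.00777 and -0.172, so their numbers were taken as names. Between the WT cell types it was 30, and 9 of 10 with at least 10 counts in every library and 17 to 33 with 1 library left out. For the interaction it was 11, 0 of 10 with at least 10 counts in every library (4 under an unadjusted p of 0.05) and 0 to 23 with 1 library left out. With the block, the mESC calls were Hoxa9, Hoxa10, Hoxb13, Hoxc6, Hoxc8 and Hoxc10. As there is no WT mESC 3 library, this block takes Atxn7l3-/- mESC 3 out of the genotype comparison, and it rests on numbers that are only names. The interaction, blocked within each cell type, had 13 calls, gaining Hoxb2, Hoxb3 and Hoxc6 and losing Hoxd1. For the WT cell types the block joined same-numbered mESC and MEF libraries, which are not known to match, and the count was 27. The filter of at least 10 counts tests fewer genes. The Hox genes that passed between genotypes or by the interaction kept their sign under every alternative that tested them. Hoxd13 kept its MEF call in 11 of 14 alternatives, with adjusted p up to 0.0884, and Hoxa9 in 6 of 14, up to 0.132. Where a count moved otherwise, the cause was not tested. Shares over all genes were counted only for the main fits, for DESeq2 between genotypes and for the MEF block, so other moved counts were not set against all genes. In each mESC library 27 to 34 of the 39 Hox genes held over 3 counts and 7 to 19 reached 1 CPM, which limits the folds of the others.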
